A study of Mus musculus with 13 samples.

Results

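The pericentral Wnt target genes are 10 genes that beta-catenin switches on in the hepatocytes around the central veins of the liver: Glul, Oat, Axin2, Lgr5, Rhbg, Slc1a2, Tbx3, Lect2, Rnf43 and Sp5. They were chosen by name and looked up by their symbols among the 53465 genes of the deposited liver count table, in which each symbol belonged to 1 identifier. All 10 had enough reads to be tested, among 13545 genes that were.

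Hepatocytes divide their work by position between the portal vein, where blood enters a lobule, and the central vein, where it leaves. Endothelial cells of the central vein release Wnt proteins and R-spondin 3, which bind Frizzled, Lrp5, Lrp6 and Lgr receptors on neighbouring hepatocytes, stop the destruction complex from degrading beta-catenin, and let it act with TCF factors on genes for glutamine synthesis, drug metabolism and the pathway's own brakes. In livers with activating beta-catenin mutations the same genes are high across the tumour, so they are widely read as a record of the strength of the pathway.

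Liver RNA was measured in male BALB/c mice, 6 WT and 7 Nod2-/-, which lack the intracellular sensor of bacterial muramyl dipeptide throughout the body. All mice of both genotypes had received the carcinogen DMBA and a high fat diet (HFD), the labels give 30 weeks for the diet and for the age, and the disease state is labelled cancer for every mouse. That label does not tell which mice bore tumours. The paper reports liver tumours in a larger share of Nod2-/- than of WT males after DMBA and HFD, so tumour load may differ between the groups. For the sequenced livers and for its tumour counts, the paper gives a longer time on HFD than the labels do. Genotypes were bred separately rather than as littermates, with mice from several cages and breeder pairs, so that genotype and breeding line cannot be told apart. The labels call the material liver, and whether a piece held tumour or surrounding tissue is not given in the sources used here. There were no untreated mice in the comparison, so that every value below compares 2 genotypes under the same treatment.

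The 13 libraries, 1 per mouse, held from 14886273 to 20579984 counts for WT and from 13824780 to 19391431 for Nod2-/-. The label liver was borne out by the 10 hepatocyte markers, which summed to between 85572.2 and 191544 counts-per-million units (CPM). Nod2 itself was close to the detection limit in both genotypes, with 0 to 4 counts per WT mouse and 1 to 6 per Nod2-/- mouse, so its level does not check the labels. Of the 13545 genes tested, 88 were higher and 69 lower in Nod2-/- mice at a false discovery rate (FDR) of 5% by edgeR's quasi-likelihood test. Levels below are normalized counts, which are counts scaled to a common library size, and differences are log2 fold changes of Nod2-/- against WT with their standard error (SE).

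None of the 10 pericentral Wnt target genes passed the test in either direction (0 of 10, edgeR, 5% FDR), where 1.16% of all genes tested did, 0.65% higher and 0.509% lower. At an unadjusted p under 0.05 there was 1 of 10, Axin2, against 23.1% of all genes tested. DESeq2 and limma's voom with quality weights also called 0 of 10 at 5% FDR, where they called 7.26% and 6.22% of the genes they adjusted, and each had Axin2 alone at an unadjusted p under 0.05. The log2 fold change was positive in 7 genes and negative in 3, with a median of 0.34 over the 10 genes and of 0.02 over all genes tested. Without Nod2-/- mouse 7 it was positive in 6, from -0.55 for Lect2 to 0.52 for Axin2. Summed over the 10 genes, in which abundant genes weigh most, the median level was 1718.4 CPM in WT and 1410.2 CPM in Nod2-/- mice. No gene of the 10 had groups that did not overlap, where 1.44% of all genes tested had such groups. What varied was the level among mice: Nod2-/- mouse 4 had the lowest level of its genotype in 8 of the 10 genes and Nod2-/- mouse 7 the highest in 9 of the 10. Without these 2 mice, a setting chosen after their values were seen, 0 of 10 passed by edgeR, Axin2 (0.66) and Slc1a2 (-0.35) were at an unadjusted p under 0.05, and the log2 fold changes of the 10 ran from -0.42 for Lect2 to 0.66 for Axin2.

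**Figure D1:**
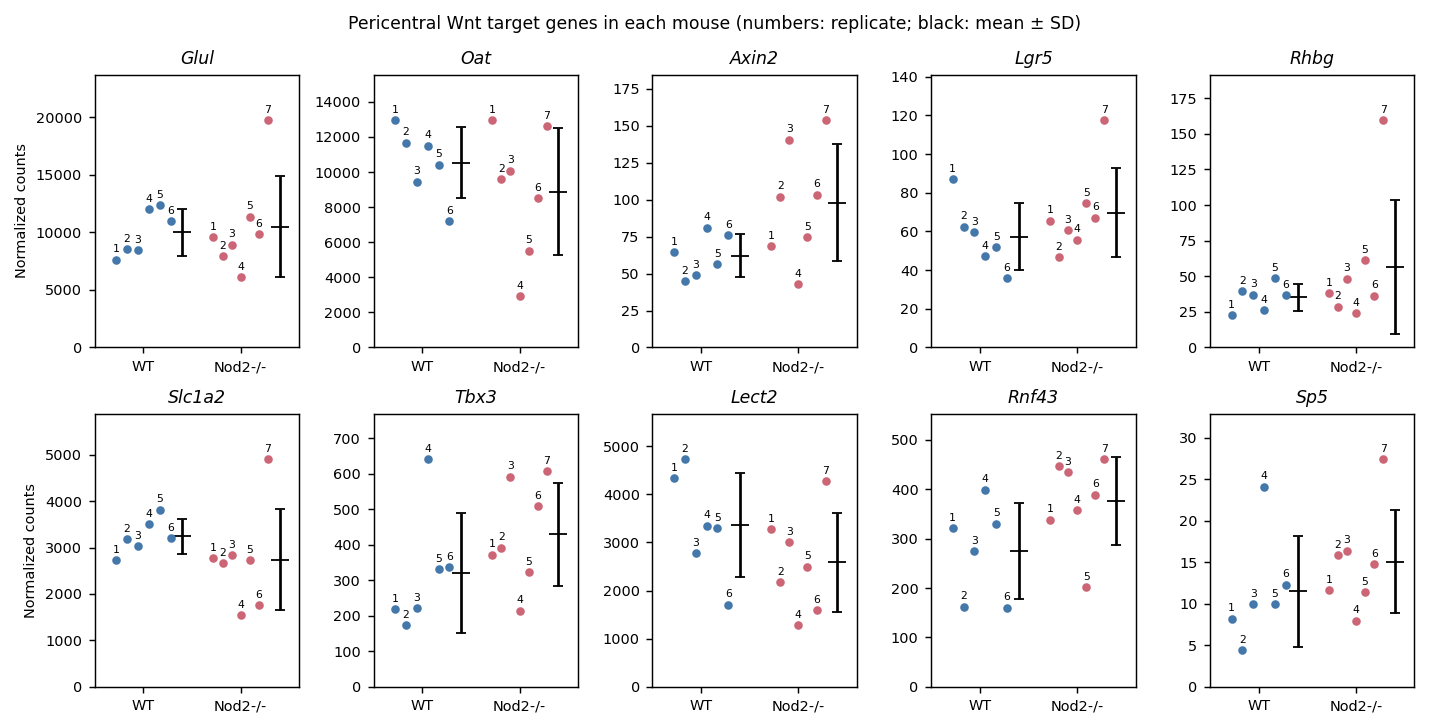
Normalized counts (y axis, linear, from 0) of the 10 pericentral Wnt target genes in each mouse, WT in blue and Nod2-/- in red, numbered by replicate, with the mean ± SD of each genotype in black (6 WT and 7 Nod2-/- mice). The genotypes overlapped in all 10 panels, and Nod2-/- mouse 7 stood above the other Nod2-/- mice in 9 of them, the exception being Oat.

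Beta-catenin acts through TCF and LEF factors, which bind short DNA motifs, and the stretch just before a gene's start is where such letters are most easily looked up. RefSeq promoters of GRCm38.p6 were at hand for 7 of the 10 genes, in 8 windows of 250 bases each, and Lgr5, Rhbg and Tbx3 were not among them. The string CTTTGAA and its variants ending otherwise, namely CTTTGAT as well as CTTTGTA and also CTTTGTT, do not overlap each other on the same strand. At least 1 of them, on either strand, was present in 3 of the 8 windows and in 14.8% of 32851 windows of the same length. All 3 windows, those of Sp5, Slc1a2 and Lect2, held CTTTGAT, which 3.21% of all windows held, and Sp5 also held CTTTGTT, which 5.03% held. Sp5 and Lect2 are shown whole because their strings lie in sequence outside any annotated gene, and Slc1a2 as a short stretch because its window overlaps an exon of the gene. Letters run 5′ to 3′ on the strand of the gene, and the capitals mark the motif or its reverse complement.
Sp5 (chr2:70474673-70474922, plus strand): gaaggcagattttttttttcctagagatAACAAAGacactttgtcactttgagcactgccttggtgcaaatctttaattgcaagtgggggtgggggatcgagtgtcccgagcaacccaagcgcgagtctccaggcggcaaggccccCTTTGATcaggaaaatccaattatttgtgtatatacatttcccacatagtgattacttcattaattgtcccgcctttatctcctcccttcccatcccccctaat
Lect2 (chr13:56548539-56548788, minus strand): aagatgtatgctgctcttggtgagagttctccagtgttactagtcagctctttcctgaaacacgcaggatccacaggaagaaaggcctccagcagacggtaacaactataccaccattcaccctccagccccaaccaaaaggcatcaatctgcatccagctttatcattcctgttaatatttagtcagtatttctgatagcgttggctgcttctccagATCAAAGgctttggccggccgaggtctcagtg
Slc1a2 (chr2:102706220-102706249, plus strand): agaagagggacATCAAAGgccccaaatggt
In Sp5 the forward string lay 104 to 98 bases before the RefSeq start and the reverse string 222 to 216 bases before it. The reverse strings of Slc1a2 and Lect2 lay 207 to 201 and 32 to 26 bases before theirs. A match of letters is a description and not a binding site, and distal elements were not searched.

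Among the genes that form the pathway's own feedback, Axin2 had the lowest adjusted p of the 10. Axin2 (ENSMUSG00000000142.15, chr11:108920349-108950783, GRCm38) codes for a scaffold of the destruction complex that beta-catenin itself induces. Its level ran from 45 over a median of 60.5 to 81.1 normalized counts in WT mice and from 42.9 over 102.1 to 153.9 in Nod2-/- mice. Nod2-/- mice 2, 3, 6 and 7 stood above all WT mice, while Nod2-/- mouse 4 was below them all. The difference was a log2 fold change of 0.66 (SE 0.26, 95% interval 0.09 to 1.23, edgeR adjusted p = 0.16), and an exact two-sided permutation test of the normalized counts over all splits of the 13 mice into groups of 6 and 7 gave p = 0.0612.

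Rnf43 (ENSMUSG00000034177.15, chr11:87662722-87735539) codes for a ubiquitin ligase that removes Frizzled receptors from the cell surface. It ran from 160.5 over 298.3 to 399.1 normalized counts in WT mice and from 201.3 over 389.2 to 460.6 in Nod2-/- mice. Nod2-/- mice 2, 3 and 7 exceeded the highest WT mouse, and no Nod2-/- mouse lay below the lowest, although WT mice 2 and 6 and Nod2-/- mouse 5 formed a low set of both genotypes. Its log2 fold change of 0.45 (SE 0.23, 95% interval -0.04 to 0.94) had an adjusted p of 0.253 by edgeR.

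Lgr5 (ENSMUSG00000020140.15, chr10:115450311-115587780) codes for an R-spondin receptor that marks the hepatocytes nearest the central vein. WT mice had 36.0 to 87.1 normalized counts with a median of 55.8, and Nod2-/- mice 46.6 to 117.6 with a median of 65.6. Apart from mouse 7, every Nod2-/- mouse lay within the range of the WT mice. The fold change was between 0.863 and 1.72 at 95% confidence (log2 fold change 0.28, SE 0.23, edgeR adjusted p = 0.479). Without mouse 7 the log2 fold change was 0.11, without WT mouse 6 it was 0.18 and without WT mouse 1 it was 0.44.

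Both transcription factors of the set had their highest WT level in the same animal, WT mouse 4. It was also the highest WT mouse in Axin2 and Rnf43, and so in 4 of the 10 genes. Tbx3 (ENSMUSG00000018604.18, chr5:119670669-119684724) codes for a T-box repressor, and ran from 174.3 over 276.9 to 640.3 normalized counts in WT mice and from 214.4 over 391.6 to 606.6 in Nod2-/- mice. Sp5 (ENSMUSG00000075304.2, chr2:70474923-70477729) codes for a zinc finger factor, and ran from 4.39 over 9.94 to 24.1 in WT mice and from 7.98 over 14.8 to 27.4 in Nod2-/- mice. WT mouse 4 exceeded all Nod2-/- mice in Tbx3 and all but mouse 7 in Sp5, and the other 5 WT mice lay at or below 337.3 for Tbx3 and at or below 12.3 for Sp5. With all mice the log2 fold changes were 0.42 (SE 0.30, edgeR adjusted p = 0.406) for Tbx3 and 0.39 (SE 0.35, edgeR adjusted p = 0.522) for Sp5, with intervals of -0.21 to 1.06 and -0.37 to 1.15. Without WT mouse 4 they were 0.74 (edgeR adjusted p = 0.158) and 0.73 (edgeR adjusted p = 0.239), while Sp5 was 0.18 without Nod2-/- mouse 7 and 0.23 without WT mouse 2.

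WT mouse 4 was also the library with the most transcripts of lung epithelium. The 10 markers of that list, 7 of which were tested, summed to 233.2 CPM in WT mouse 4, to 28.7 to 134.4 CPM in the other WT mice and to 28.1 to 78.4 CPM in Nod2-/- mice. The share of this in the levels of Tbx3 and Sp5 was not tested. Sp5 rested on 4 to 22 counts per WT mouse and 8 to 28 per Nod2-/- mouse, so that counting error alone was sizeable. Tbx3 shares 115 exon bases with the antisense gene Tbx3os1, which had 29 to 148 counts per mouse, and reads of the pair can be told apart only if strand was used in counting.

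The genes for nitrogen handling had no common direction. Glul (ENSMUSG00000026473.15, chr1:153899944-153909723) codes for glutamine synthetase, which fixes the ammonia that periportal urea synthesis leaves over, and is confined in normal liver to the hepatocytes bordering the central vein. It ran from 7626.2 over 9759.3 to 12382.7 normalized counts in WT mice and from 6110.1 over 9563.4 to 19759.4 in Nod2-/- mice. Mouse 4 lay below and mouse 7 above all WT mice, and the other 5 Nod2-/- mice were within the WT range. Its log2 fold change was 0.07 (SE 0.23, edgeR adjusted p = 0.877), which bounds the fold change between 0.748 and 1.48 at 95% confidence, and it was -0.16 (edgeR adjusted p = 0.636) without mouse 7 and 0.17 without mouse 4.

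Oat (ENSMUSG00000030934.9, chr7:132557478-132576398) codes for ornithine aminotransferase, which feeds ornithine carbon into glutamate. WT mice had 7189 to 12967.7 normalized counts with a median of 10967.2, and Nod2-/- mice 2938.9 to 12942.3 with a median of 9590.2. Nod2-/- mice 4 and 5 lay below all WT mice and none above, and the log2 fold change was -0.25 (SE 0.27, 95% interval -0.83 to 0.34, edgeR adjusted p = 0.614), or -0.09 without mouse 4.

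Rhbg (ENSMUSG00000104445.1, chr3:88242874-88254709) codes for an ammonium transporter of the Rhesus family. Its WT mice spanned 22.6 to 48.6 normalized counts with a median of 36.9, and its Nod2-/- mice 23.9 to 159.7 with a median of 38.1. The medians were thus nearly equal and the positive log2 fold change of 0.69 (SE 0.40, 95% interval -0.16 to 1.55, edgeR adjusted p = 0.311) rested on mouse 7, without which it was 0.17 (edgeR adjusted p = 0.746). Rhbg shares 1190 exon bases on the same strand with Gm38392, which had 0 or 1 counts per mouse, so counts that both genes could claim may be missing from Rhbg.

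Slc1a2 (ENSMUSG00000005089.15, chr2:102658659-102790784) codes for the glutamate transporter GLT-1. It ran from 2721.5 over 3200.4 to 3816 normalized counts in WT mice, the tightest group among the 10 genes, and from 1540.7 over 2732.1 to 4901.1 in Nod2-/- mice. Nod2-/- mice 2, 4 and 6 lay below all WT mice and mouse 7 above them. Its log2 fold change of -0.24 (SE 0.21, 95% interval -0.69 to 0.21, edgeR adjusted p = 0.504) became -0.45 (edgeR adjusted p = 0.172) without mouse 7 and -0.14 (edgeR adjusted p = 0.725) without mouse 4.

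Lect2 (ENSMUSG00000021539.9, chr13:56542464-56548502) codes for a protein that hepatocytes secrete into the blood. Its levels ran from 1708 over 3319.2 to 4725.6 normalized counts in WT mice and from 1274.5 over 2498.2 to 4267.1 in Nod2-/- mice. Nod2-/- mice 4 and 6 were below the lowest WT mouse, and WT mice 1 and 2 were above every Nod2-/- mouse. At -0.38 (SE 0.27, 95% interval -0.96 to 0.20, edgeR adjusted p = 0.416) it had the lowest log2 fold change of the 10.

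On a scale of CPM per kilobase of exon, the genes fell into an abundant and a scarce set. Oat (median over the 13 mice 257.7), Lect2 (197.2) and Glul (173.6) came first and overlapped in range. Slc1a2 followed at 13, and its range overlapped neither that of Glul nor that of the next gene. Rnf43 (3.11) and Tbx3 (3.07) were next and could not be ordered within their spread, followed by Rhbg (1.15), Axin2 (0.818), Lgr5 (0.356) and Sp5 (0.334), each of which overlapped its neighbour. The enzymes, transporters and the secreted protein of mature pericentral hepatocytes were thus above the pathway's feedback genes and factors on this scale, with Rhbg as the exception among the transporters.

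The Nod2-/- mice varied more than the WT mice in 7 of the 10 genes and in 55.3% of all genes tested. The coefficient of variation was 41.9% in Nod2-/- and 20.4% in WT mice for Glul, 39.7% and 11.7% for Slc1a2, and 83.2% and 26.8% for Rhbg. Tbx3, Rnf43 and Sp5 varied more among WT mice, with 52.9% against 33.7% for Tbx3. Over the 10 genes the median coefficient was 40.1% in Nod2-/- and 28.5% in WT mice, and over all genes tested 19.1% and 17.7%. With mice 4 and 7 left out, a choice made after their values were seen, the median over the 10 genes was 25.8% in the other 5 Nod2-/- mice. Over all genes tested it was 17.7% in those 5. No WT mouse was left out, so these values cannot be set against those of the WT mice. These shares describe the libraries, and the difference in spread between genotypes was not tested.

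Nod2-/- mouse 4 had all 10 genes below the mean of its genotype, and mouse 7 had all 10 above it. As a mean over the 9 genes with an average of at least 1 on the log2 CPM scale, mouse 4 deviated by -0.77 and mouse 7 by 0.84, while the other 11 mice lay between -0.21 and 0.25. Mouse 7 had 6.67 times the Rhbg level of mouse 4, 4.29 times its Oat level and 3.23 times its Glul level, but only 1.29 times its Rnf43 level. Over all genes tested, mouse 4 was the lowest Nod2-/- mouse in 17.9% and mouse 7 the highest in 15.0%.

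**Figure D2:**
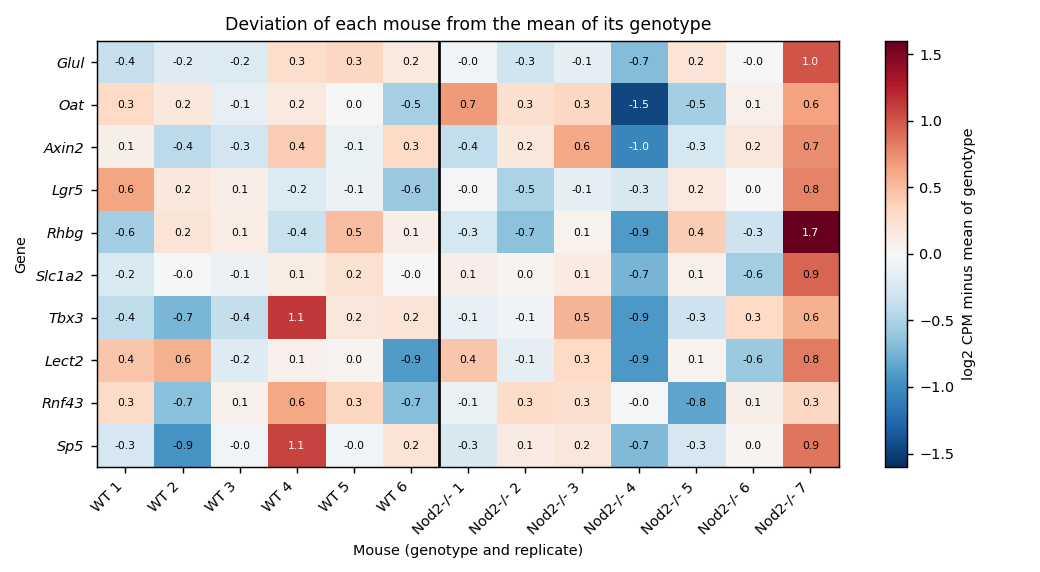
Deviation of each of the 13 mice (columns) from the mean of its genotype for each of the 10 genes (rows), in log2 CPM, from blue for lower to red for higher. The column of Nod2-/- mouse 4 is below 0 in all 10 genes (mean -0.77) and that of Nod2-/- mouse 7 above 0 in all 10 (mean 0.84), and WT mouse 4 is high in Tbx3 and Sp5.

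Markers of other cells also set these 2 mice apart. In mouse 7 the 10 neutrophil markers, 4 of which were tested, summed to 1001.1 CPM, against 6.06 to 41.7 CPM in the other Nod2-/- mice and 4.17 to 9.53 CPM in WT mice. The 8 Kupffer cell and macrophage markers reached 429.3 CPM in mouse 7, against 143.7 to 228.5 CPM in the other Nod2-/- mice and 115 to 213.5 CPM in WT mice. In mouse 4 the 10 hepatocyte markers summed to 191544 CPM, the highest of all 13 mice, where WT mice had 85572.2 to 120633.8 CPM. Albumin (Alb) made up 127895.7 CPM of it, the sum without Alb was still the highest (63648.3 CPM, against 33741.9 to 46414.1 CPM in the other mice), and of the 10 markers 5 were highest of all mice in mouse 4 while 2, Apoa2 and Ttr, were lowest of all. The 8 cholangiocyte markers summed to 496.7 CPM in mouse 4, 387.5 CPM of it Spp1, against 141.8 to 374.9 CPM in the other Nod2-/- mice and 48.2 to 313.5 CPM in WT mice. Without Spp1 the sum was 109.2 CPM in mouse 4 and 105.1 CPM in WT mouse 3, and mouse 4 was highest of all mice in 2 of the 8 markers. Of these 8, 7 were tested and 1 passed, Sox9, where 0.65% of all genes tested were higher. The log2 fold changes of the 7 were positive in 5 and negative in 2, the lowest being -0.4. At an unadjusted p under 0.05, 2 of the 7 were higher, where 12.9% of all genes tested were. Sox9 had 24.1 to 77.8 normalized counts in the WT group (median 49.1) and 77 to 164.4 in the Nod2-/- group (median 122.5), with 6 of 7 Nod2-/- mice above every WT mouse (log2 fold change 1.29, SE 0.25, edgeR adjusted p = 0.0324). Every marker of these 4 lists had more than 3 counts in at least 1 mouse. For the 10 neutrophil markers that can be mouse 7 alone, which was the highest of all mice in each. The part of these cells in the levels of the 10 genes was not tested, and in bulk RNA fewer cells of a type and less RNA per cell cannot be told apart.

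Across mice the 10 genes tended to rank together once the genotype means were subtracted. Of their 45 pairs, 43 had a positive Pearson correlation of log2 CPM over the 13 mice and 21 exceeded 0.5, with a median of 0.454. The closest pairs were Tbx3 with Sp5 (0.919), Glul with Rhbg (0.861) and Axin2 with Tbx3 (0.838), and the lowest was Rhbg with Rnf43 (-0.0878). All pairs share the same libraries and the 2 outlying mice, and these coefficients are given as a description.

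Glul was set against each of the other 9 genes in a permutation test within genotypes (100000 draws, two-sided, Benjamini-Hochberg adjustment over the 9 relations). It correlated with Rhbg (r = 0.861, adjusted permutation p = 0.0179, Spearman's rho 0.687, adjusted permutation p = 0.0424), Slc1a2 (r = 0.83, adjusted permutation p = 0.0197, rho 0.736, adjusted permutation p = 0.0424) and Tbx3 (r = 0.662, adjusted permutation p = 0.0249, rho 0.72, adjusted permutation p = 0.0424). For Sp5, r was 0.678 (adjusted permutation p = 0.0249) and rho 0.549 (adjusted permutation p = 0.15). Axin2 had r = 0.629 (adjusted permutation p = 0.0893, rho 0.522, adjusted permutation p = 0.15), and the coefficients of Oat (0.427), Lect2 (0.408), Lgr5 (0.359) and Rnf43 (0.106) did not pass, with adjusted permutation p from 0.279 to 0.702 and rho from 0.0659 to 0.258.

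None of the 4 relations passed without Nod2-/- mice 4 and 7, the 2 mice farthest from the median of Glul, so the calls depended on having those mice. Fewer mice also weaken the test. Leaving out WT mouse 4 alone ended the calls of Tbx3 and Sp5 (adjusted permutation p = 0.0541 for each). With both left out, which also narrows the range of Glul, and the means taken anew, r was 0.492 for Rhbg, 0.548 for Tbx3, 0.431 for Sp5 and 0.341 for Slc1a2, with adjusted permutation p from 0.442 to 0.486. Oat (-0.467), Lgr5 (-0.407), Lect2 (-0.341) and Rnf43 (-0.124) then had negative coefficients. Within the 6 WT mice alone, r was 0.907 for Slc1a2 and 0.811 for Tbx3, but -0.78 for Lgr5 and 0.382 for Rhbg, and within the 7 Nod2-/- mice it was 0.838, 0.651, 0.925 and 0.965 in the same order.

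**Figure D3:**
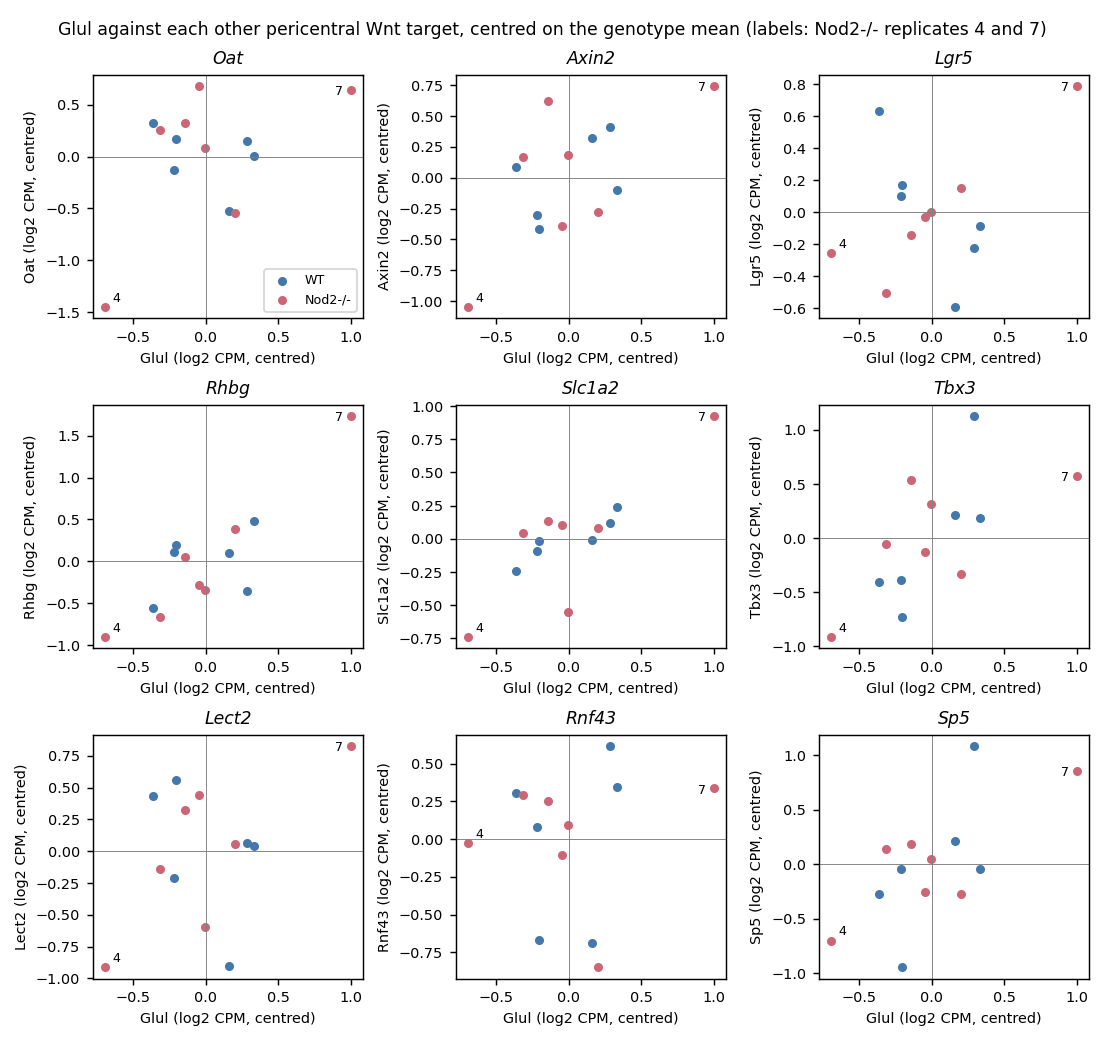
Level of Glul (x axis) against each of the other 9 genes (y axes), in log2 CPM after subtraction of the genotype mean, with 1 point per mouse and WT in blue, Nod2-/- in red. Nod2-/- mice 4 and 7 are labelled and lie at the ends of the Glul axis, and r for Rhbg is 0.861 with them and 0.492 without them.

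The genes whose levels followed the mean of the set most closely came from several functions. Over the 13 mice and 11498 genes, the highest correlations with the mean of the 9 genes were those of Eif2d (r = 0.888), a translation factor, Aldh1a7 (0.879), an aldehyde dehydrogenase, Lcp1 (0.878), a leukocyte actin-bundling protein, Lhpp (0.876), a histidine phosphatase, and Fcna (0.86), a ficolin of macrophages. None of these 5 passed the test between genotypes (edgeR adjusted p from 0.282 to 0.991), and the Nod2-/- mice spanned 277.2 to 1034.9 normalized counts for Lhpp and 241.3 to 796.8 for Fcna. Lhpp also belongs to the 23 other pericentral genes described below, whose coefficients ran from -0.309 to 0.876. The mean of the 9 genes deviated most in Nod2-/- mice 4 (-0.77) and 7 (0.84), so the coefficients lean on those mice. The ranking itself places every other gene below those 5. Of the pathway genes fixed beforehand, Rspo3 had 0.43, Lgr4 0.404, Nkd1 0.44, Notum 0.574 and Ctnnb1 -0.0873. Inhibitors ran from -0.322 for Ctnnbip1 to 0.616 for Kremen1, and TCF factors and co-activators from -0.532 for Tcf7l1 to 0.751 for Bcl9l.

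Upstream of the 10 genes, the Wnt ligands were few. Of 19 ligand genes 5 were tested, and 0 passed by edgeR, where 1.16% of all genes tested did. At an unadjusted p under 0.05, where 10.2% of all genes tested were lower, 1 ligand was lower (Wnt4, log2 fold change -0.66, edgeR adjusted p = 0.186). Wnt2, which sinusoidal and central vein endothelium secretes, had 27.6 to 38.4 normalized counts in the WT group and 27.3 to 41.2 in the Nod2-/- group (log2 fold change 0.12, SE 0.16, edgeR adjusted p = 0.674). Wnt9b, the other endothelial ligand of this zone, was below the filter on low counts. Its groups did not overlap, with 0.904 to 7.73 normalized counts in WT mice (median 5.75) and 8.46 to 33.3 in Nod2-/- mice (median 13.9). An exact permutation test gave p = 0.00291, DESeq2 called it (log2 fold change 1.59, adjusted p = 0.0158), and edgeR without the filter did not (1.57, adjusted p = 0.0859). It rested on 1 to 7 counts per WT mouse and 8 to 34 per Nod2-/- mouse, and its highest level was that of mouse 7.

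Rspo3, the R-spondin of the central vein, was the only one of 4 R-spondins tested. WT mice had 47.9 to 78.4 normalized counts (median 59.3) and Nod2-/- mice 50.9 to 176.4 (median 86.3), with mouse 6 highest and mouse 4 lowest. This gave a log2 fold change of 0.61 (SE 0.24, edgeR adjusted p = 0.154), which was 0.39 without mouse 6. Beside these values, the 10 endothelial markers of central vein and sinusoid summed to 142.2 to 201.4 CPM in the WT group and 156.1 to 211.1 CPM in the Nod2-/- group, with 0 of 10 past 5% FDR by edgeR and 4 of 10 higher at an unadjusted p under 0.05, where 12.9% of all genes tested were. Their part in the levels of Wnt9b and Rspo3 was not tested. The 2 genes for Wnt secretion, Porcn and Wls, did not pass either (edgeR adjusted p from 0.386 to 0.661). Neither was at an unadjusted p under 0.05, where 23.1% of all genes tested were.

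Of 14 receptor genes 9 were tested, and 1 passed, Fzd8, which was lower in Nod2-/- mice (0.509% of all genes tested were lower). Fzd8 (ENSMUSG00000036904.5, chromosome 18), a Frizzled receptor, had 198.1 to 469.5 normalized counts in the WT group and 134.8 to 206.2 in the Nod2-/- group. Its medians were 334.4 and 180.3, and 5 of the 7 Nod2-/- mice lay below every WT mouse. It had a log2 fold change of -0.98 (SE 0.17, edgeR adjusted p = 0.0181), and the adjusted p rose to 0.0523 without WT mouse 1, to 0.0504 without WT mouse 5 and to 0.0611 without Nod2-/- mice 4 and 7. Lgr4, the R-spondin receptor of hepatocytes at large, had a log2 fold change of 0.03 (SE 0.10, edgeR adjusted p = 0.885), and the co-receptor Lrp6 one of -0.20 (SE 0.09, edgeR adjusted p = 0.188).

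The signal relay inside the cell had small differences between genotypes. Of 12 genes of the transducers and the destruction complex 11 were tested and 0 passed by edgeR, DESeq2 or voom, with log2 fold changes from -0.21 to 0.25. At an unadjusted p under 0.05 there were 0 by any of the 3, where edgeR had 23.1% of all genes tested. Ctnnb1, which codes for beta-catenin itself, had 4261.1 to 5908.7 normalized counts in the WT group and 4089.5 to 5343.8 in the Nod2-/- group (log2 fold change -0.02, SE 0.10, edgeR adjusted p = 0.943), which says nothing of the protein or its mutations. Among 8 TCF and LEF factors and co-activators 6 were tested and 0 passed by edgeR. At an unadjusted p under 0.05, where 12.9% of all genes tested were higher and 10.2% lower, 2 of the 6 were higher and 1 lower. DESeq2 called 1 of these, Tcf7l1 (log2 fold change 0.68, adjusted p = 0.0378), and the main hepatocyte factor Tcf7l2 had a log2 fold change of 0.16 (SE 0.14, edgeR adjusted p = 0.494).

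The inhibitors of the pathway had no common direction, with 3 positive and 6 negative log2 fold changes. Of 19 inhibitor genes 9 were tested and 0 passed by edgeR. At an unadjusted p under 0.05, where 12.9% of all genes tested were higher and 10.2% lower, 1 of the 9 was higher and 1 lower. Notum, a secreted enzyme that inactivates Wnt proteins by removing their lipid, had 551.9 to 696.2 normalized counts in the WT group and 199.4 to 612.3 in the Nod2-/- group, with mouse 4 lowest. Its log2 fold change was -0.58 (SE 0.19, edgeR adjusted p = 0.103), and DESeq2 called it (-0.60, adjusted p = 0.0413). Znrf3, the partner of Rnf43, had a log2 fold change of -0.20 (SE 0.12, edgeR adjusted p = 0.346), and Nkd1, an inhibitor that binds Dishevelled, one of 0.10 (SE 0.17, edgeR adjusted p = 0.753).

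**Figure D4:**
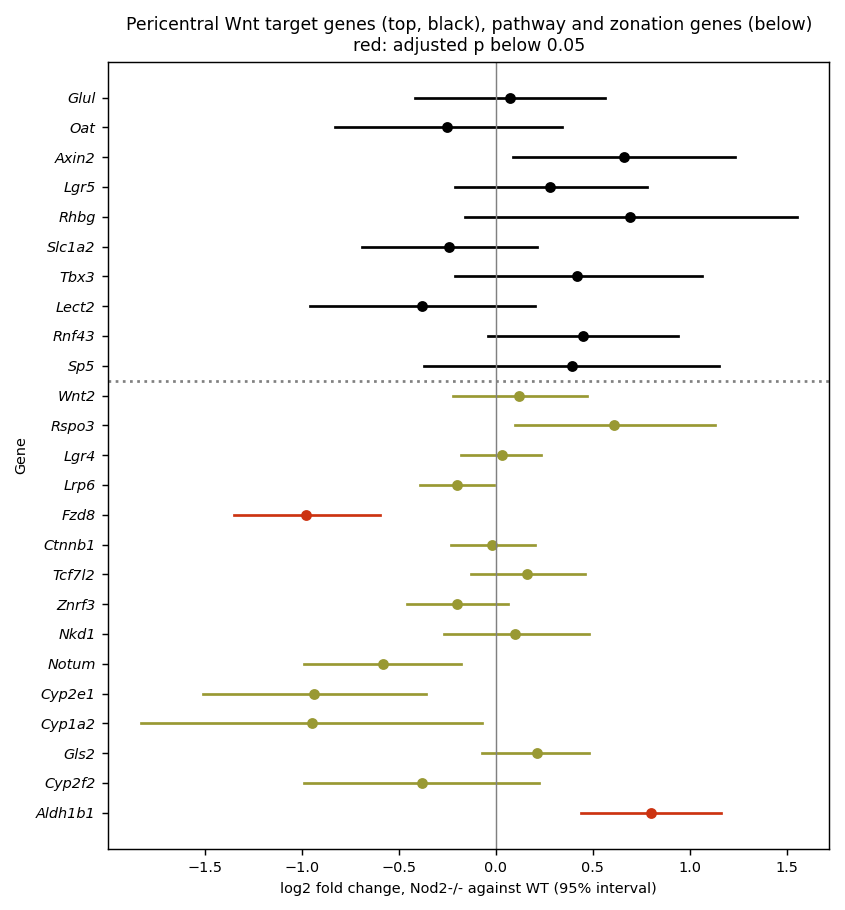
Log2 fold change of Nod2-/- against WT (x axis, points with 95% intervals) for the 10 pericentral Wnt target genes in black and for named genes of the pathway and of liver zonation below, with red for an adjusted p below 0.05. Of the 10 genes Axin2 alone had an interval that left out 0 (0.09 to 1.23), at an adjusted p of 0.16, and the red genes are Fzd8 (-0.98) and Aldh1b1 (0.80).

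Other genes of pericentral hepatocytes, those for drug, bile acid and vitamin metabolism among them, had a negative median. Of 23 genes, all tested, 0 passed at 5% FDR by edgeR, but 10 were lower and 2 higher at an unadjusted p under 0.05, where 10.2% and 12.9% of all genes tested were, and the median log2 fold change was -0.34. The 2 higher genes were Cyp7a1, of bile acid metabolism, and Slc13a3. Their log2 fold changes were 0.99 (edgeR adjusted p = 0.137) and 1.18 (edgeR adjusted p = 0.105). DESeq2 called 6 of the 23, where it called 7.26% of all genes it adjusted, and voom 1, where it called 6.22%. Of the 6 called by DESeq2, Slc13a3 was higher (1.17, DESeq2 adjusted p = 0.0319) and the others were lower. Cyp2e1, the ethanol-metabolizing cytochrome, had 120394.7 to 235128.2 normalized counts in the WT group and 36203.1 to 126412 in the Nod2-/- group, with mouse 4 lowest (log2 fold change -0.94, SE 0.27, edgeR adjusted p = 0.0777, DESeq2 adjusted p = 0.00962). Cyp1a2, which metabolizes caffeine, had a log2 fold change of -0.95 (SE 0.41, edgeR adjusted p = 0.188). Summed, the 23 genes were lowest in mouse 4, at 6474.4 CPM, but in mouse 7 they reached 14139.3 CPM, the median of the Nod2-/- mice, and gene by gene mouse 4 was the lowest Nod2-/- mouse in 15 and mouse 7 the highest in 8 of the 23.

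Genes of periportal hepatocytes stood on the other side of the lobule. Of 20 genes, all tested, 1 passed by edgeR, Aldh1b1, a mitochondrial aldehyde dehydrogenase, where 0.65% of all genes tested were higher. Aldh1b1 had 942.4 to 1716.2 normalized counts in the WT group and 1473.5 to 2837.2 in the Nod2-/- group (log2 fold change 0.80, SE 0.17, edgeR adjusted p = 0.0386). Its adjusted p was above 0.05 when any of 8 single mice was left out. At an unadjusted p under 0.05, 6 of the 20 were higher and 2 lower, where 12.9% and 10.2% of all genes tested were. The median log2 fold change of the list was -0.06. Gls2, the liver glutaminase, had a log2 fold change of 0.21 (SE 0.13, edgeR adjusted p = 0.343) and the cytochrome Cyp2f2 one of -0.38 (SE 0.28, edgeR adjusted p = 0.431). As a sum the list was highest in mouse 4, at 32077.4 CPM, against 15433.5 to 21402.2 CPM in the other Nod2-/- mice and 14122.4 to 18615.3 CPM in WT mice. That sum was carried by the apolipoprotein gene Apoa4, at 20213.4 CPM in mouse 4, and without it mouse 4 had 11864 CPM, within the 11041.2 to 16534.9 CPM of the other Nod2-/- mice. Gene by gene, mouse 4 was the highest Nod2-/- mouse in 5 and the lowest in 3 of the 20.

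**Figure D5:**
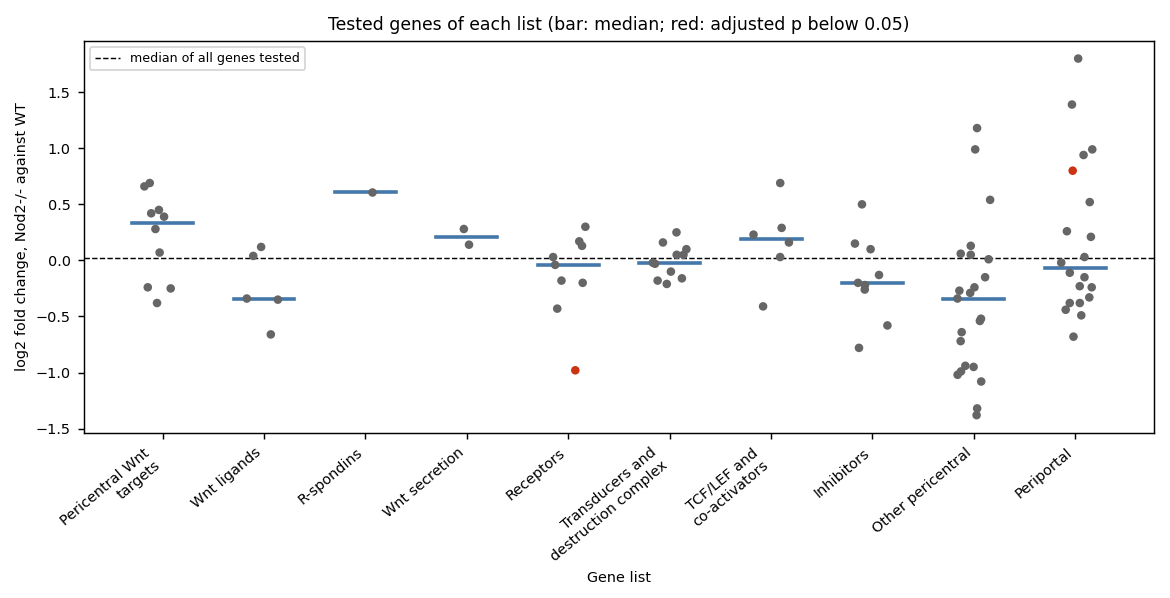
Log2 fold change of Nod2-/- against WT (y axis) for the tested genes of each list (x axis), with 1 grey point per gene, red for an adjusted p below 0.05, a blue bar for the median of the list and a dashed line for the median of all genes tested (0.02). The median of the 10 pericentral Wnt targets is 0.34 and that of the 23 other pericentral genes -0.34, and the red points are Fzd8 among the receptors and Aldh1b1 among the periportal genes. All values include Nod2-/- mice 4 and 7.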

How the data were processed

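Liver polyA RNA of 6 WT and 7 Nod2-/- mice was sequenced as paired-end stranded libraries, 1 per mouse. The authors deposited raw read counts per gene, as whole numbers and without normalization. The submitters' processing notes name Trimmomatic 0.33, TopHat2 2.1.1 and build GRCm38. The counting program and its strand setting are not given in the sources used here, so reads of overlapping genes are uncertain. Genotypes came from the labels. Nothing in them ties the replicates to litters or cages, and p-values measure the spread between these mice. Within genotypes, all 36 pairs of libraries differed beyond counting noise, with a chi-square of 11.7 to 181.9 times its degrees of freedom.

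The 1 row without a gene identifier was left out. Genes kept by edgeR's filterByExpr (13545 of 53465, with 99.9% of counts) were fitted in edgeR 4.0.16 and R 4.3.3 (TMM, glmQLFit, glmQLFTest, two-sided, no covariate) with Benjamini-Hochberg adjustment over all genes tested and a threshold of 0.05. For normalized counts, each library was scaled to 16581214, the mean of the effective library sizes, and log2 CPM used a prior count of 2. Lists of marker and pathway genes are described by counts and medians, with no test over a list. Single values were tested by an exact permutation over all splits of the mice, whose smallest possible p is 0.000583. Positions and exon lengths came from a GENCODE annotation of GRCm38, in which 53274 identifiers were found, and promoters from RefSeq.

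The 10 genes and all lists were chosen with earlier results of these data known. Genes named beyond the 10 were 14 fixed pathway and zonation genes, any gene of those lists past 5% FDR, and the 5 genes most correlated with the mean of the more abundant of the 10 (average log2 CPM 1 or more). Wnt4, Tcf7l1, Bcl9l, Kremen1, Ctnnbip1, Porcn, Wls, Apoa4, Cyp7a1, Slc13a3, the cell markers Alb, Apoa2, Ttr, Spp1 and Sox9, and the genes overlapping the 10 were named after their values were seen. Alternatives were DESeq2 1.42.0, limma 3.58.1 (voom with quality weights), RLE normalization, other filters on low counts, removal of the 20 most abundant genes, a replicate block, and leaving out mice. The fits of edgeR, DESeq2 and voom were also run on simulated counts, with the outcome not reported here. Those counts held no outlying mice, and the correlation and permutation tests were not simulated.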

Additional observations from a re-analysis of the deposited data

Results flagged for a closer look

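In 5 of the 20 gene and genotype groups, the most extreme mouse stood farther from its nearest neighbour than Dixon's 95% limit allows, and chance alone gives about 1 in 20. Nod2-/- mouse 7 was that mouse in 4 of the 5: it had 19759.4 normalized counts of Glul (next highest 11373.1), 117.6 of Lgr5 (next 74.7), 159.7 of Rhbg (next 61.5) and 4901.1 of Slc1a2 (next 2829.2). The fifth was Tbx3 in WT mouse 4, with 640.3 normalized counts against 337.3 in the next WT mouse. The 4 values of mouse 7 come from 1 library and are not independent of each other.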

How the results depend on the processing

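The count of pericentral Wnt targets past 5% FDR was 0 in both directions under every alternative run, with adjusted p no lower than 0.119 (Axin2, DESeq2). Over all genes, 88 higher and 69 lower became 605 and 549 with DESeq2, 519 and 324 with voom, 17 and 18 with the replicate block, 408 and 159 without WT mouse 3 and Nod2-/- mouse 7, and 21 and 22 without Nod2-/- mice 4 and 7, an alternative chosen after seeing the data. There is no WT mouse 7, so in the replicate block Nod2-/- mouse 7 stood alone and did not inform the genotype difference. Leaving out single mice gave 20 to 697 higher and 20 to 459 lower, most without WT mouse 3. In the lists, DESeq2 called 1 ligand, 1 TCF gene, 1 inhibitor, 6 other pericentral and 4 periportal genes, voom 1 other pericentral and 5 periportal genes, and the fit without WT mouse 3 and Nod2-/- mouse 7 called 1 TCF gene and 3 periportal genes. Over all genes they adjusted, DESeq2 called 7.26% and voom 6.22%. The receptors and periportal genes each had 0 calls with the replicate block and without mice 4 and 7. Single mice left out gave 0 to 1 receptors, 0 to 3 other pericentral and 0 to 5 periportal genes.

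The log2 fold change of Glul turned negative with voom (-0.04), the replicate block (-0.16), without WT mouse 3 and Nod2-/- mouse 7 (-0.20) and without mice 4 and 7 (-0.07), and ran from -0.16 to 0.17 over single mice left out. The other 9 kept their sign under every alternative that gave a value, which the minimum of 10 counts in every mouse did not for Sp5. Values near 0 also turned: Lhpp (-0.01 with DESeq2, RLE or no filter, -0.11 with voom, -0.23 with the block, -0.26 and -0.09 without the 2 pairs of mice), Fcna (-0.11, -0.11 and -0.08 with the block and without those pairs), Lgr4 (-0.01, 0 and -0.02 likewise), Ctnnb1 (0.04 with voom, 0.06 without WT mouse 3 and Nod2-/- mouse 7) and Nkd1 (-0.01, the same setting). Over single mice left out they ran from -0.21 to 0.13 (Lhpp), -0.14 to 0.27 (Fcna), -0.03 to 0.08 (Lgr4) and -0.05 to 0.04 (Ctnnb1). The block also takes Nod2-/- mouse 7 out of the genotype difference, so it is not separate from the fits without that mouse. Other causes were not tested.

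Correlations of Glul with Tbx3 (0.61) and Sp5 (0.637) lost their call without centring. Without WT mouse 3 and Nod2-/- mouse 7, r was 0.702 (Rhbg), 0.623 (Slc1a2), 0.659 (Tbx3) and 0.551 (Sp5), none past the threshold, and -0.199 for Lgr5 and -0.0896 for Rnf43. Without mice 4 and 7 it was 0.492, 0.341, 0.548 and 0.431 for those 4, and -0.467 (Oat), -0.407 (Lgr5), -0.341 (Lect2) and -0.124 (Rnf43). Over single mice left out, r ran from 0.655 to 0.933 (Rhbg), 0.627 to 0.919 (Slc1a2), 0.543 to 0.73 (Tbx3), 0.541 to 0.719 (Sp5), 0.446 to 0.736 (Axin2), -0.216 to 0.607 (Lgr5) and -0.101 to 0.24 (Rnf43), leaving out Nod2-/- mouse 4 or 7 alone ended all 4 calls, leaving out WT mouse 4 those of Tbx3 and Sp5, and Axin2 was called without Nod2-/- mouse 3.

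Replicate numbers recur in both genotypes but did not pair the mice: 1 of 6 same-numbered pairs deviated together beyond 0.1 (range -0.302 to 0.304), and 0 WT mice were closest to their own number. With the replicate block the adjusted p of Fzd8 was 0.0906 and that of Aldh1b1 0.144. Depth bears on Sp5 and Wnt9b, whose lowest counts per mouse were 4 and 1.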
